A study of Mus musculus with 54 samples.

Results

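The comparison set 3 libraries of mouse embryonic stem cells expressing EZH2 A733T against 3 libraries of cells expressing wild-type EZH2, all after treatment with all-trans retinoic acid (ATRA), across every gene of the deposited count table. The members are these 6 libraries, chosen by their column names, of 48 libraries that could be matched to a label and 54 samples in the series. Per the labels, both lines descend from an Ezh2fl/∆ heterozygote, in which 1 allele of the mouse gene Ezh2 is deleted and the other is flanked by loxP sites, and to which an EZH2 transgene was added: EZH2-WT in the line called WT here, and EZH2 with an alanine replaced by threonine (A733T) in the line called A733T. Differentiation was brief and consisted of withdrawing 2i and LIF, the inhibitors and cytokine that hold stem cells undifferentiated, and adding ATRA. The same lines were also sequenced undifferentiated (mESC). Further libraries used below for comparison came from the parental line with both Ezh2 alleles, from the heterozygote without a transgene (het), and from 4 lines with other EZH2 variants (A677T, R679C, K634E and K563E). The sources used here give neither the dose and duration of ATRA nor the promoter of the transgene, and do not say whether a line was 1 clone. The series concerns Weaver syndrome, an overgrowth syndrome caused by EZH2 variants, and names 1 growth restriction-associated variant without saying which; from general knowledge of the study, A733T is that variant.

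EZH2 is the enzyme of Polycomb repressive complex 2 (PRC2) and puts methyl groups on lysine 27 of histone H3. The mark is laid over the promoters of many developmental regulators, among them the Hox genes, and keeps them silent in stem cells. Retinoic acid enters the nucleus, binds its receptors and turns on a first set of direct targets, including the 3′ Hox genes and the enzymes that degrade retinoic acid, while the genes of the undifferentiated state are shut off. The question the comparison addresses is which genes differ when the variant in place of the wild-type protein is expressed during this exit from the stem cell state.

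The 6 libraries held 15612700 to 24677036 counts, and mitochondrial genes took 1.49% to 1.96% of them. Libraries of 1 group differed from each other by more than counting error (chi-square per degree of freedom 3.76 to 10.5), so none is a copy of another. Each library's difference from the mean of the ATRA libraries was correlated across genes with their GC content, and Spearman's rho ran from -0.28 to 0.55 among the WT libraries and from 0.02 to 0.26 among the A733T libraries. Nothing in the labels says that the replicates were separate cultures, so the spread behind every p-value is that between these libraries and may be technical. Levels below are CPM (counts per 1000000, on library sizes scaled by the TMM method), fold changes are log2 values of A733T against WT with their standard error (SE), and a gene was called at an adjusted p under 0.05. In bulk RNA, fewer cells of a type and less RNA per cell cannot be told apart.

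Stem cell markers were present in all 6 libraries. The 9 markers of embryonic stem cells summed to 1728 to 1770 CPM in WT and 1515 to 1570 in A733T, with Sox2 and Utf1 called lower in A733T, Esrrb, Zfp42 and Nanog called higher, and Pou5f1, Klf4, Sall4 and Lin28a not called. Of 7 fibroblast or feeder markers, 4 passed the filter on low counts, and Col1a1 (1.10, adjusted p = 0.00128 in edgeR's quasi-likelihood test) and Thy1 (0.81, 0.00442) were called higher in A733T. Lum and Postn had 1 and 3 counts in the 6 libraries together. The list summed to 6.32 to 6.65 CPM in WT and 8.96 to 13.6 in A733T.

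Of 17030 genes tested, 3014 (17.7%) differed between A733T and WT after ATRA, with 1766 higher (10.4%) and 1248 lower (7.33%) in A733T. Without WT replicate 3, 1125 were higher and 914 lower, and with a correction for GC content 2303 were higher and 2192 lower. The changes were unequal in size: 397 of the higher genes but only 51 of the lower genes differed at least 2-fold, and the median log2 difference was 0.64 among the higher and -0.30 among the lower genes. The higher genes were low in WT, at a median of 5.49 CPM, while the lower genes had a median of 75.2 CPM, against 12 CPM for all genes tested. In libraries simulated at these depths, the test recovered 74% of genes changed 1.5-fold and 82% of genes changed 2-fold. Recovery of genes under 1 CPM was not tested separately. Of the genes higher at least 2-fold in A733T, 59.45% were under 1 CPM in WT, so these percentages may not apply to them.

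**Figure D1:**
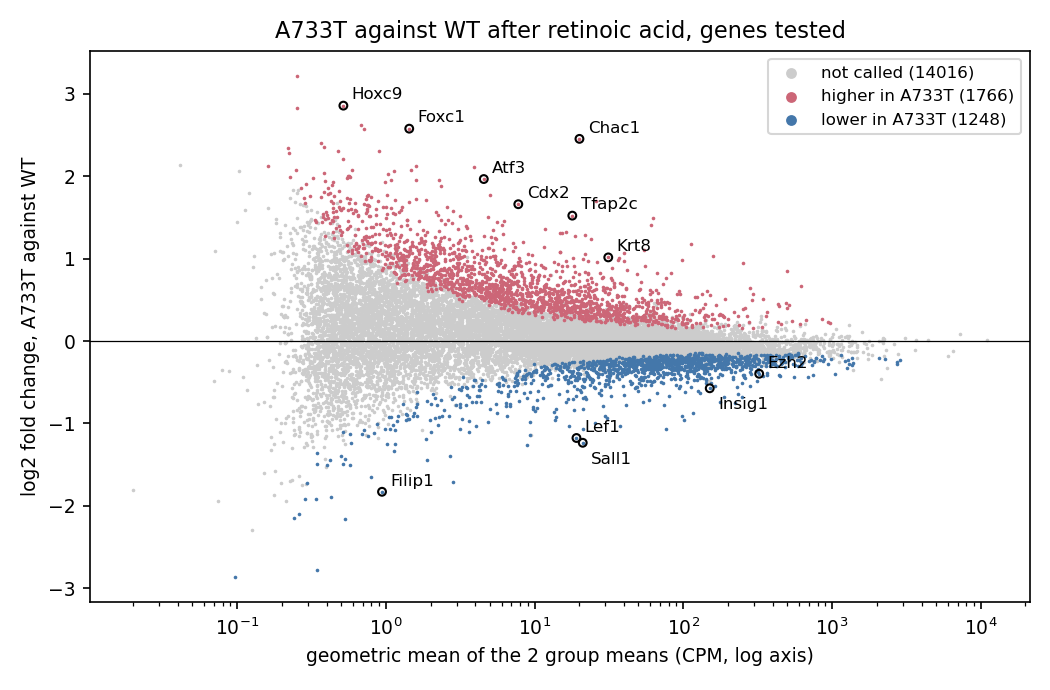
Each point is 1 of the 17030 genes tested, placed by the geometric mean of its WT and A733T group means (CPM, log axis) and its log2 fold change in A733T against WT after retinoic acid. Red points are the 1766 genes called higher and blue points the 1248 called lower. More of the large differences lie above 0 than below it, many of them among genes of low level such as Hoxc9 and Foxc1. A gene that passed the filter on low counts only through A733T, as Hoxc9 did, had to lie above 0.

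The genes with the largest increases included posterior Hox genes, forkhead transcription factors and a stress response enzyme. Hoxc9 (chromosome 15, 102976439 to 102985099 in GRCm38) had 0.28, 0.203 and 0.0923 CPM in WT and 1.55, 1.34 and 1.32 CPM in A733T, from 5, 5 and 2 counts against 25, 29 and 24, a log2 difference of 2.86 (SE 0.53, adjusted p = 0.000389). Foxc1 (chromosome 13, 31806633 to 31812476), a forkhead factor of mesoderm and neural crest, stood at 0.728, 0.446 and 0.6 CPM in WT and 3.28, 3.79 and 3.42 CPM in A733T (2.58, SE 0.26, adjusted p = 6.56e-08). Both genes were under 1 CPM in every WT library and above it in every A733T library. Hoxc9 was at or below 0.352 CPM in every ATRA library of the other lines. It thus passed the filter on low counts only through A733T and had to be higher there. The same holds of any other gene named here that passed only in that way. Cntnap3 rose by 2.62, Hoxc8 by 2.58 and Chac1, which degrades glutathione under amino acid stress, by 2.45. They were followed by Hoxd9 (2.31), Tmprss2 (2.31), Slc4a1 (2.21), Lad1 (2.13), Ebf4 (2.08), Slc16a9 (2.08), Hoxd8 (2.03), the hormone gene Sct (2.01), Doc2b (2.00) and Foxc2 (1.99). The call of Foxc2 (adjusted p = 0.00714) was lost without WT replicate 2 or WT replicate 3, with an adjusted p of at most 0.103 over the alternatives, and that of Slc4a1 (0.00349) reached 0.0571 in replicates 1 and 2 alone.

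The decreases were smaller, and a zinc finger repressor and a Wnt effector were among them. Sall1 (chromosome 8, 89027235 to 89044162), a transcription factor of kidney and limb that is also expressed in stem cells, had 33.2, 33.5 and 30.4 CPM in WT and 13.9, 13.8 and 13.5 CPM in A733T (-1.24, SE 0.07, adjusted p = 3.53e-12). Lef1 (chromosome 3, 131110471 to 131224356), which carries the Wnt signal to DNA, had 28.2, 26.9 and 31.4 CPM in WT and 11.5, 13.3 and 13.3 CPM in A733T (-1.18, SE 0.10, adjusted p = 1.03e-09). In both genes the lowest WT library was about 2-fold above the highest A733T library. Filip1 had the largest decrease (-1.83), from 2.69, 1.87 and 0.876 CPM in WT, which spread widely, to 0.433, 0.6 and 0.441 CPM in A733T. It was followed by Crct1 (-1.71), Prr22 (-1.44), Mep1b (-1.39), Shcbp1l (-1.33), the protease inhibitor A2m (-1.26), Platr5 (-1.25), Rfx4 (-1.25), Ctrl (-1.19), Rab33a (-1.15), the glutathione transferase Gstp2 (-1.14), Chl1 (-1.13) and Epo (-1.11). Of these, 4 genes near 1 CPM lost their call without single libraries: Platr5 without WT replicate 3, A733T replicate 1 or A733T replicate 2 (adjusted p up to 0.0841), Rab33a without any of WT replicates 2 and 3 and A733T replicates 2 and 3 (up to 0.139), Chl1 without any of WT replicates 1 and 3 and A733T replicates 1 and 3 (up to 0.192), and Epo without A733T replicate 1 (0.0708).

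**Figure D2:**
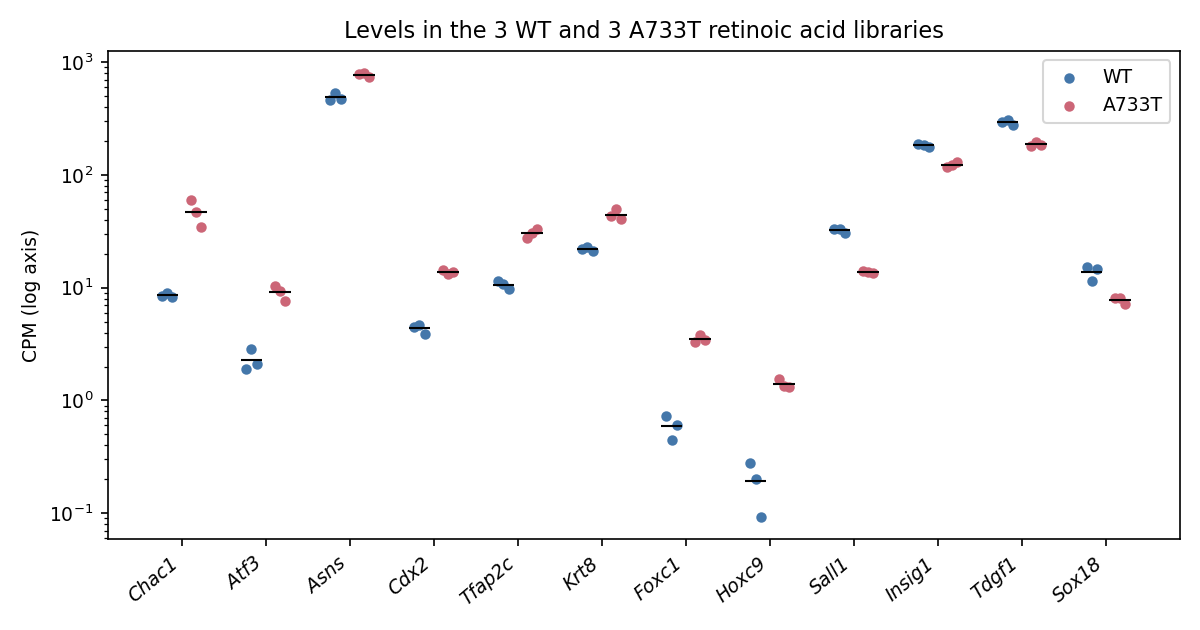
Levels (CPM, log axis) of 12 genes in each of the 3 WT (blue) and 3 A733T (red) libraries after retinoic acid, with the group mean as a black line. For every gene shown the WT and A733T libraries do not overlap; Sall1, Insig1, Tdgf1 and Sox18 are lower in A733T and the other 8 genes are higher.

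Transcripts of Ezh2 itself were fewer in A733T than in WT. Ezh2 (chromosome 6, 47530139 to 47595341) had 367, 369 and 379 CPM in WT and 286, 281 and 280 CPM in A733T (-0.40, SE 0.06, adjusted p = 1.47e-05), between WT and the het line without a transgene (245 ± 5.4 CPM, SD, n = 3). Whether transgene reads are counted under Ezh2 is not stated in the labels, so the level checks neither the variant nor the endogenous allele. Of the other subunits that form the core of PRC2, Eed (-0.02), Suz12 (-0.16) and the alternative catalytic subunit Ezh1 (0.21) were not called. Of 15 PRC2 subunits and cofactors measured, 1 rose and 4 fell, where 10.4% and 7.33% of all genes tested did. The member that rose was Phf19 (0.64, adjusted p = 0.0124), named after its value was seen, and none rose without WT replicate 3. Jarid2, which guides PRC2 to its targets, fell by 0.28 (SE 0.05, adjusted p = 0.000275), from 447 to 478 CPM in WT to 365 to 388 CPM in A733T. AU022751, the mouse Ezhip gene and an inhibitor of PRC2, stood at -0.65 (adjusted p = 0.0053, or 0.0894 in replicates 1 and 2 alone). Lcor, whose locus encodes a PRC2 accessory protein, stood at -0.27 (0.00941, or 0.0605 without A733T replicate 1 or 2). With a correction for GC content, 7 of the 15 members fell.

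Of 25 PRC1 subunits, the second Polycomb complex, 6 rose and 2 fell, against 10.4% and 7.33% of all genes tested. Auts2, a subunit of a PRC1 form linked to activation in neurons, fell by 0.46 (SE 0.08, adjusted p = 0.000118), from 44.6, 43.6 and 41.8 CPM to 32.3, 30.6 and 32 CPM. The chromobox genes Cbx8 (0.92, adjusted p = 0.0184) and Cbx7 (0.32, 0.0218) and the ring finger gene Pcgf5 (0.46, 0.0213) were called, but each lost its call without single libraries: Cbx8 without WT replicate 1 or A733T replicate 3 (adjusted p up to 0.071), Pcgf5 without WT replicate 3, A733T replicate 2 or A733T replicate 3 (up to 0.112), and Cbx7 without any library except WT replicate 2 (up to 0.108). Without WT replicate 1, WT replicate 3, or any 1 A733T library, 1 or 2 of the 25 members rose. The 2 that fell became 1 without WT replicate 1, A733T replicate 2 or A733T replicate 3, 4 with the replicate block and 6 with the GC correction. None of 8 DNA methylation and TET genes was called in edgeR's quasi-likelihood test, with Uhrf1 at -0.17 (adjusted p = 0.0599) and Dnmt1 at -0.16 (0.0944); 2 were called lower with the GC correction or the replicate block and 1 in DESeq2.

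Most members rose in the integrated stress response, the programme by which cells short of amino acids or with unfolded protein activate the factor ATF4 and its targets. Of 28 genes of this list, all measured, 22 rose in A733T and none fell, with a median of 0.51 against 0.02 for all genes tested. The shares of all genes tested were 10.4% higher and 7.33% lower. Chac1 (chromosome 2, 119351229 to 119354381) had 8.51, 8.88 and 8.26 CPM in WT and 59.7, 47.1 and 34.3 CPM in A733T (SE 0.20, adjusted p = 2.8e-08). The A733T libraries spread from 34.3 to 59.7 CPM, and the lowest of them lay far above the highest WT library. Atf3 (chromosome 1, 191170296 to 191218039), a transcription factor induced by stress, had 1.9, 2.84 and 2.12 CPM in WT and 10.3, 9.33 and 7.66 CPM in A733T (1.97, SE 0.17, adjusted p = 2.22e-09). Asns (chromosome 6, 7675169 to 7693254), the enzyme that makes asparagine, rose from 461, 533 and 476 CPM to 784, 802 and 745 CPM (0.67, SE 0.06, adjusted p = 1.12e-08). Cth, which makes cysteine from cystathionine, rose from 93.7, 110 and 96.7 CPM to 145, 153 and 137 CPM (0.54, SE 0.07, adjusted p = 3.8e-06). Other members, not chosen by the naming rule, were Pck2 (1.5), Nupr1 (1.27), Vldlr (1.08), Ddit4 (0.83), Ddit3 (0.80), Trib3 (0.70) and Atf4 itself (0.24), all called. The 6 members not called were Fgf21 (1.28), Shmt2 (0.23), Phgdh (0.20), Slc7a1 (0.05), Stc2 (0.05) and Atf5 (-0.02).

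Promoters of this list often held the ATF4 composite element, and those of the members with the largest support are shown with the matched letters in capitals. Sequences are the 250 bases before to 50 bases after the gene's start on the gene's own strand, from RefSeq on GRCm38.p6, for chr2:119350992-119351291 (plus strand), chr1:191183284-191183583 (minus strand) and chr6:7693160-7693459 (minus strand).
Chac1: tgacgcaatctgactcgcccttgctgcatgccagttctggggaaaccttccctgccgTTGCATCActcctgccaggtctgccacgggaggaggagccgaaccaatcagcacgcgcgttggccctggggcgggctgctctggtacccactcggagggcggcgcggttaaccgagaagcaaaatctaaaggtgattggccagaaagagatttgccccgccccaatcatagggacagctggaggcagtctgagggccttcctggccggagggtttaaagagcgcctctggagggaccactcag
Atf3: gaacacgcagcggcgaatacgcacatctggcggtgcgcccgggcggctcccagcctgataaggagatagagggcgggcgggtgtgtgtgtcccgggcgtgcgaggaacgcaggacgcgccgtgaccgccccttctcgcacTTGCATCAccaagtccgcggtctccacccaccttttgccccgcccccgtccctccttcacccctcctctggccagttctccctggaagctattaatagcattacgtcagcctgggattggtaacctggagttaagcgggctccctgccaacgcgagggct
Asns: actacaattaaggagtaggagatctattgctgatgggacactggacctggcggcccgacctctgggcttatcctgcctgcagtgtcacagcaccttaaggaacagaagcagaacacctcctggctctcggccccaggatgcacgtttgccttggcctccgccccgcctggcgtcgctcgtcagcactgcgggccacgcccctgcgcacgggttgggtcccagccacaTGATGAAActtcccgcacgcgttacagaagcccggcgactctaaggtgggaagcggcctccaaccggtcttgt
The start used for Atf3 is the RefSeq one, which lies inside the GENCODE gene given above. The motif searched was TGATGNAA on either strand, which overlaps no other motif searched. It began 193 bases before the start of Chac1 and 110 before that of Atf3, both on the opposite strand, and 23 before that of Asns on the same strand. A promoter was found for 26 of the 28 list members, and 10 of these (38.5%) held the motif, 9 of the 20 that were called and 1 of the 6 that were not. Of all 27025 genes with a promoter in the table, 4.51% held it. A match describes letters in this window and nothing about binding.

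Among these stress response genes, Chac1, Atf3 and Asns had higher means in parental, het and A733T than in WT and the 4 other variants after ATRA. Chac1 averaged 83.6 ± 14 CPM in parental and 79 ± 8.1 in het, 47 ± 13 in A733T, 8.55 ± 0.32 in WT and between 8.25 ± 1.7 (K563E) and 11.1 ± 2.9 (K634E) in the 4 other variants (SD, n = 3 each). Atf3 was at 13.3 ± 0.23 CPM in parental, 9.22 ± 1.4 in het and 9.09 ± 1.3 in A733T, against 2.29 ± 0.49 in WT and 1.56 ± 0.39 to 2.19 ± 0.30 in the others. Asns was at 782 ± 15, 814 ± 67 and 777 ± 29 CPM in the same first 3 lines, 490 ± 38 in WT and 343 ± 4.7 to 432 ± 12 in the others. The A733T mean lay near both lines without a transgene for Asns, near het and below parental for Atf3, and between these lines and WT for Chac1. Tested against the mean of the 4 other variants, 27 of the 28 members were higher in A733T, and tested against het, none was higher and 18 were lower, Chac1 by 0.75 (adjusted p = 0.00397) and Cth by 0.57 (7.28e-07), while Atf3 (-0.02, 0.952) and Asns (-0.07, 0.536) were not called. Over all genes tested, 27% were higher against the variants, and 9.06% were higher and 6.58% lower against het.

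**Figure D3:**
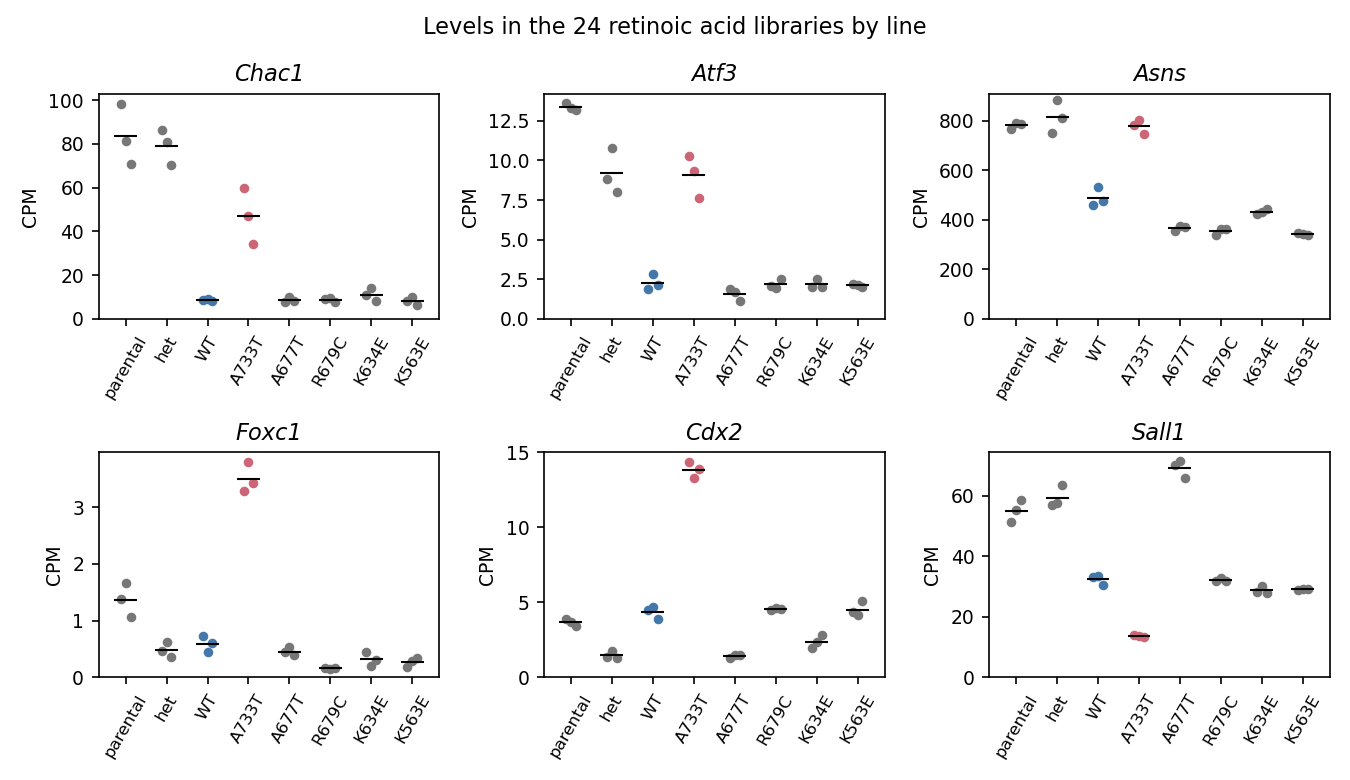
Levels (CPM, axes from 0) of 6 genes in the 3 retinoic acid libraries of each of 8 lines, with line means as black bars; WT is blue, A733T red and the other lines grey. Chac1, Atf3 and Asns are high in parental, het and A733T and low in WT and the 4 other variants, Foxc1 and Cdx2 are highest in A733T, and Sall1 is lowest there.

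Genes of cholesterol and lipid synthesis, which the factor SREBP2 and its relatives switch on when sterol is short, moved the other way. Of 22 measured, 15 were lower in A733T and none was higher, with a median of -0.34. Over all genes tested, 7.33% were lower and 10.4% higher. Insig1 (chromosome 5, 28071363 to 28078662), the sterol-sensing retention protein, fell from 190, 184 and 177 CPM to 117, 123 and 130 CPM (-0.57, SE 0.07, adjusted p = 1.1e-06). Cyp51, the lanosterol demethylase, fell from 146, 131 and 138 CPM to 97.5, 105 and 96.6 CPM (-0.47, adjusted p = 3.74e-06). Hmgcs1 (-0.41, 0.000403) and Sqle (-0.34, 0.000455) fell as well, with no overlap between the groups. The shifts were modest but lay on abundant transcripts. Insig1 averaged 184 ± 6.2 CPM in WT against 116 ± 6.8 in parental, 145 ± 3.4 in het, 124 ± 6.2 in A733T and 147 ± 7.9 to 171 ± 3.5 in the 4 other variants (SD, n = 3). Against het, 5 of the 22 genes were lower in A733T and 1 was higher, and against the mean of the 4 variants 10 were lower and 1 was higher. The shares of all genes tested were 6.58% lower and 9.06% higher against het, and 21.5% and 27% against the variants. The promoter of Hmgcs1 was the only one of the 13 list members found in the table that held the sterol regulatory element, searched as TCACNCCAC on both strands (1.44% of all promoters).

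Genes of trophoblast and simple epithelium rose together in A733T. Of 19 list members, 14 passed the filter on low counts, and 11 of these rose, 1 fell and 2 were not called, with a median of 0.96. All genes tested had shares of 10.4% higher and 7.33% lower. As in the next lists, a member that passed only through the A733T libraries had to be higher there. Cdx2 (chromosome 5, 147300805 to 147307270), a homeobox factor of trophectoderm and of the posterior embryo that also activates Hox genes, rose from 4.48, 4.71 and 3.92 CPM to 14.4, 13.3 and 13.9 CPM (1.66, SE 0.13, adjusted p = 3.27e-10). Tfap2c (chromosome 2, 172549593 to 172558622), a factor of trophoblast, primordial germ cells and surface ectoderm, rose from 11.4, 10.8 and 9.64 CPM to 27.6, 30.5 and 33.1 CPM (1.52, SE 0.10, adjusted p = 7.38e-12). The keratins of simple epithelium, Krt8 (1.02, adjusted p = 2.15e-08) and Krt18 (0.98, 2.82e-06), roughly doubled, from 21.3 to 23 CPM and 14.6 to 17.5 CPM in WT to 40.9 to 49.8 CPM and 29.9 to 33.9 CPM in A733T. The member that fell was Eomes (-0.43, adjusted p = 0.015), a call lost without WT replicate 1, WT replicate 2 or A733T replicate 1. Of the 5 defining trophoblast markers, Cdx2 and Tfap2c rose, Gata3 did not pass (0.95, adjusted p = 0.0502), and Elf5 and Plac1 were below the filter with 4 and 16 counts in the 6 libraries together. The 5 summed to 14.9 to 17 CPM in WT and 43.6 to 49.3 in A733T.

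Cdx2 and its relative Cdx1 had their highest means in A733T among the 8 lines. Cdx2 averaged 13.8 ± 0.54 CPM in A733T against 1.47 ± 0.26 in het, 3.66 ± 0.25 in parental, and 1.42 ± 0.13 (A677T) to 4.57 ± 0.056 (R679C) in the 4 other variants (SD, n = 3). Cdx2 exceeded het by 3.24 (adjusted p = 2.33e-15) and the mean of the 4 variants by 2.26 (8.95e-17). Cdx1 rose from 52.1 to 63.5 CPM in WT to 90.4 to 96.2 CPM in A733T (0.69, SE 0.11, adjusted p = 6.29e-05).

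Of 39 Hox genes, 31 passed the filter on low counts, and 17 of these rose, 3 fell and 11 were not called, where 10.4% of all genes tested rose and 7.33% fell. These counts are partly set by the filter: Hoxb13, Hoxc6, Hoxc8, Hoxc9, Hoxc13, Hoxd3 and Hoxd9 averaged 0.192 to 0.44 CPM in WT, and a gene that passed only through the A733T libraries had to be higher there. All 6 HoxC genes tested and 4 of 5 HoxD genes were called higher. Most of these were under a few CPM in WT, apart from Hoxc4, which went from 14.4 to 15.4 CPM to 20.4 to 22.3 CPM, and Hoxc5, from 4.61 to 5.88 CPM to 9.42 to 10.4 CPM. In HoxB, the 3′ genes Hoxb1 (0.06), Hoxb2 (-0.06), Hoxb3 (-0.21) and Hoxb4 (0.07) were not called at 16.6 to 134 CPM, while Hoxb6 (0.63), Hoxb8 (0.37), Hoxb9 (1.41) and Hoxb13 (1.59) rose. Hoxb9 rose from 37.8, 39.4 and 35.6 CPM to 104, 102 and 92.7 CPM (SE 0.08, adjusted p = 2.94e-12), the Hox gene with the smallest p. In HoxA, Hoxa7 (0.72) and Hoxa9 (0.38) rose, and Hoxa5 (-0.30) and Hoxa10 (-0.45) fell. Several calls, most of them of low genes, rested on single libraries: Hoxb13 was lost without WT replicate 2, WT replicate 3 or A733T replicate 2, Hoxc13 (1.61, adjusted p = 0.0339) without any of WT replicates 2 and 3 and A733T replicates 1 and 2 and in DESeq2, and Hoxd3 (1.93, 0.00698) without WT replicate 3. The decrease of the better expressed Hoxb5 (-0.23, 0.0169) was lost without WT replicate 3 or A733T replicate 1. Against het, which lacks the WT libraries, 25 of the 31 Hox genes were higher in A733T and none was lower. There 9.06% of all genes tested were higher and 6.58% lower.

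**Figure D4:**
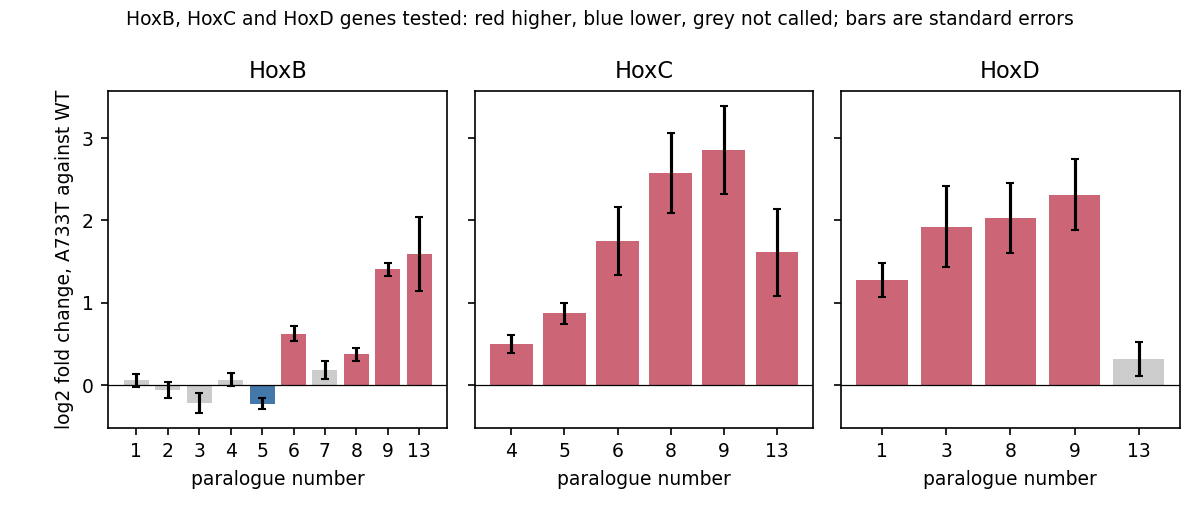
Log2 fold change of A733T against WT after retinoic acid for the tested genes of the HoxB, HoxC and HoxD clusters, ordered by paralogue number, with standard errors; red genes are called higher, blue lower and grey not called. The HoxC and HoxD genes stand between 0.32 and 2.86, while the anterior HoxB genes lie near 0. A gene that passed the filter on low counts only through A733T had to be higher there.

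The other developmental Polycomb targets, transcription factors that carry the PRC2 mark in stem cells, more often rose than fell. Of 71 members, 50 passed the filter, and 19 of these rose, 3 fell and 28 were not called, with a median of 0.63. Over all genes tested, 10.4% rose and 7.33% fell. Barx1, a factor of stomach and jaw, rose from 1.74, 2.03 and 1.15 CPM to 4.77, 4.66 and 5.4 CPM (1.58, SE 0.23, adjusted p = 1.91e-05). Wt1, a factor of kidney and gonad, went the other way, from 69, 68.7 and 69.6 CPM to 40, 42 and 42.3 CPM (-0.74, SE 0.09, adjusted p = 1.97e-06). Unlike Barx1, Wt1 was well expressed in WT. A member that passed the filter only through A733T had to be higher there, so the count describes those that passed and not all 71. Against het, 37 of the 50 were higher and 3 lower, and against the mean of the 4 variants 33 were higher and 6 lower. The shares of all genes tested were 9.06% higher and 6.58% lower against het, and 27% and 21.5% against the variants.

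**Figure D5:**
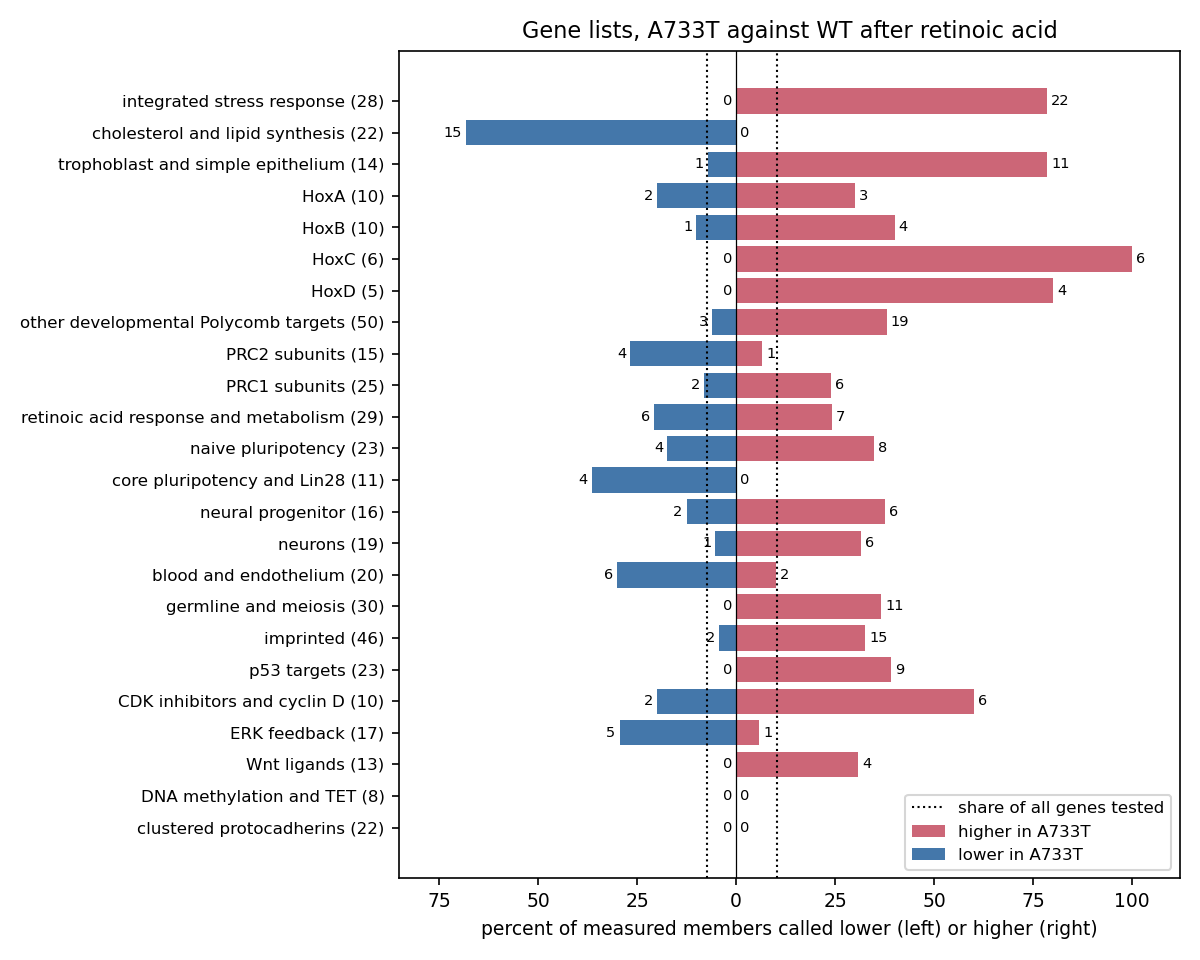
For 24 gene lists, the percent of measured members (number in brackets) called higher (red, right) or lower (blue, left) in A733T than in WT after retinoic acid, with the number of genes beside each bar. Dotted lines mark the share of all genes tested, 10.4% higher and 7.33% lower. The HoxC, HoxD, stress response and trophoblast lists extend furthest to the right and the cholesterol list furthest to the left. Members that passed the filter on low counts only through A733T had to be higher there, which partly sets the HoxC and HoxD bars.

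The direct response to retinoic acid did not shift as a whole: of 29 genes measured, 7 rose and 6 fell. All genes tested had shares of 10.4% higher and 7.33% lower. Crabp1, which binds retinoic acid in the cytoplasm, rose from 4.25, 3.61 and 3.41 CPM to 11.9, 9.97 and 9.09 CPM (1.46, SE 0.18, adjusted p = 1.48e-06). Its relative Crabp2, which delivers retinoic acid to the receptors, rose from 16.7, 17.6 and 16.8 CPM to 30, 31.2 and 29.5 CPM (0.83, SE 0.14, adjusted p = 0.000109). Cyp26a1, the enzyme that degrades retinoic acid and a direct target of its receptors, rose from 386, 413 and 339 CPM to 504, 527 and 501 CPM (0.43, adjusted p = 0.000489). The count of members that fell was 1 without WT replicate 1, 3 without A733T replicate 2 and 10 with the GC correction.

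Genes of naive pluripotency changed in both directions, and those of the shared pluripotency core that changed were lower. Of 23 naive genes, 8 rose and 4 fell, where 10.4% of all genes tested rose and 7.33% fell. Esrrb rose from 49.1, 51.1 and 49.2 CPM to 77.2, 74.7 and 73.5 CPM (0.59, SE 0.07, adjusted p = 7.82e-07), and Tfcp2l1 (0.47, adjusted p = 3.9e-05) and Klf2 (0.58, 4.67e-05) rose likewise, whereas Tbx3 fell (-0.39, 0.000585). Of 11 core genes, none rose and 4 fell. Tdgf1 (chromosome 9, 110939603 to 110946158), the Nodal co-receptor, fell from 296, 304 and 277 CPM to 180, 197 and 185 CPM (-0.64, SE 0.05, adjusted p = 1.41e-09), and Utf1 from 288, 341 and 316 CPM to 197, 206 and 187 CPM (-0.68, SE 0.11, adjusted p = 0.000204). Sox2 (-0.32, 0.00617) and Trim71 (-0.21, 0.00969) fell in the full set of libraries, but Sox2 had an adjusted p of 0.057 in replicates 1 and 2 alone, and Trim71 lost its call there and without WT replicate 1 (up to 0.0654). With the GC correction 7 of the 11 fell.

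Some genes of early blood and endothelium fell in A733T against WT, where 10.4% of all genes tested rose and 7.33% fell. Of 20 measured of 23, 2 rose and 6 fell, with a median of -0.07; the 2 became 1 without any single library except WT replicate 2. Kdr, the VEGF receptor of endothelial precursors, fell from 21.4, 16 and 20.1 CPM to 10.1, 9.74 and 9.7 CPM (-0.96, SE 0.16, adjusted p = 0.000145). Etv2, the factor that commits mesoderm to endothelium, fell from 25, 23.2 and 25.5 CPM to 13.4, 14 and 13.7 CPM (-0.84, adjusted p = 0.000156), and Sox18 (-0.81, 8.58e-05) and Tal1 (-0.67, 0.000616) fell with no overlap. The same 4 genes exceeded het, Kdr by 1.42 (adjusted p = 4.15e-06) and Tal1 by 1.74 (2.07e-09), and 13 of the 20 list members were higher than in het and 1 was lower. Over all genes tested, 9.06% were higher than in het and 6.58% lower. For Kdr the line means ran from 2.75 ± 0.66 CPM in parental and 3.64 ± 0.84 in het through 9.85 ± 0.22 in A733T and 19.2 ± 2.8 in WT to 27.7 ± 4.4 to 37 ± 5.3 in the 4 other variants (SD, n = 3). The 5 defining markers of blood and endothelium summed to 69.4 to 76.4 CPM in WT and 52.7 to 54.5 in A733T, and Gata1 had 10 counts in the 6 libraries together.

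Neural genes rose in part, where 10.4% of all genes tested rose and 7.33% fell. Of 16 neural progenitor genes measured of 20, 6 rose and 2 fell, among them Pax6 (0.43, adjusted p = 0.000247), from 18.1 to 19.4 CPM to 24.1 to 26 CPM, Irx3 (1.03, 0.00049) and Hes1 (0.49, 0.000776), while Sox11 fell (-0.38, 0.00262). The 2 decreases became 1 without WT replicate 2, WT replicate 3, A733T replicate 1 or A733T replicate 2. Of 19 neuronal genes measured of 21, 6 rose and 1 fell, with Tubb3, a tubulin of neurons, at 49.4, 51.4 and 45.1 CPM in WT and 78.4, 71.5 and 67.4 CPM in A733T (0.57, SE 0.11, adjusted p = 0.000648) and Stmn2 at 0.36 (0.00215). The decrease was that of Ebf1 (-0.32, 0.00301). In replicates 1 and 2 alone, 3 of the 19 rose. The 7 defining neuron markers summed to 107 to 108 CPM in WT and 141 to 151 in A733T.

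Several imprinted genes with roles in fetal growth were higher in A733T. Of 46 measured of 49, 15 rose and 2 fell, where 10.4% of all genes tested rose and 7.33% fell. In replicates 1 and 2 alone 9 rose. None fell without WT replicate 1 or A733T replicate 2, and 1 fell without any of the other libraries. Grb10 (chromosome 11, 11930508 to 12038683), an adaptor that restrains insulin and IGF signalling, rose from 373, 380 and 356 CPM to 664, 674 and 656 CPM (0.85, SE 0.05, adjusted p = 3.53e-12). Cdkn1c, the inhibitor of cyclin-dependent kinases affected in Beckwith-Wiedemann syndrome, rose from 71.3, 64.7 and 74.8 CPM to 138, 137 and 142 CPM (0.98, SE 0.10, adjusted p = 9.13e-08). Peg3 (1.03, 1.9e-11) and Dlk1 (1.01, 7.05e-07) about doubled, with no overlap between groups. Among growth genes, Igf2 rose from 0.504, 0.649 and 1.01 CPM to 2.85, 2.49 and 1.49 CPM (1.63, SE 0.34, adjusted p = 0.00121), and Igfbp3, a binding protein of IGF, by 0.48 (5.4e-05). Igf2bp3, an RNA-binding protein of the let-7 and IGF2 network, fell from 116, 106 and 111 CPM to 57.1, 50.4 and 51.2 CPM (-1.07, SE 0.06, adjusted p = 2.94e-12), and Igf2bp1 fell by 0.25 (0.00178).

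Germline genes, silenced in most cells by DNA methylation and Polycomb, changed in 1 direction here: 11 of 30 rose and none fell, although 1 fell with the replicate block, the GC correction, RLE size factors or DESeq2. The shares of all genes tested were 10.4% higher and 7.33% lower. Dmrt1 rose from 5.21, 6.9 and 6.64 CPM to 12.3, 13.5 and 13.6 CPM (1.06, SE 0.11, adjusted p = 2.13e-07), the cohesin Rec8 by 0.64 (0.000367) and the homeobox gene Rhox6 by 0.97 (0.000415). Of 13 genes of the 2-cell-like state that were measured, 4 rose, all of them Zscan4 copies of 0.672 to 3.96 CPM whose reads may be shared between near-identical genes. Without A733T replicate 1 none of the 4 was called, without WT replicate 1 there were 2, and A733T replicate 1 was the highest library of Zscan4c, Zscan4e and Zscan4f.

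Signalling genes changed in both directions, where 10.4% of all genes tested rose and 7.33% fell. Of 17 genes of the ERK response, 1 rose and 5 fell, and 3 fell and none rose without WT replicate 3 or A733T replicate 2. Myc had 140, 142 and 140 CPM in WT and 71.6, 71.8 and 73 CPM in A733T (-0.96, SE 0.06, adjusted p = 2.94e-12), and Etv1 fell by 0.51 (0.000384). Of 13 Wnt ligands that passed the filter, of 19, 4 rose and none fell, with Wnt9a at 1.12 (3.71e-05) and Wnt8a at 0.84 (0.000275). Of 19 genes of Wnt feedback and the TCF/LEF factors, 5 rose and 4 fell. Those that fell were Lef1, the secreted Wnt inhibitor Notum (-1.02, 0.000436), Sp8 (-0.65, 9.22e-06) and Tcf7l2 (-0.43). Those that rose were Sfrp5 (0.70), Cdx1 (0.69), Nkd2 (0.50), Sfrp1 (0.37) and Axin2 (0.32). The count that rose was 3 without WT replicate 3 or A733T replicate 1. In the Nodal and BMP list, 2 of 22 genes rose, 3 fell and 17 were not called, with a median of -0.09. Bmp7 rose by 1.27 (0.000337) and Lefty2 by 0.35. Among those that fell were Tdgf1 (-0.64) and Smad7, an inhibitor of the pathway, by 0.44 (0.000272).

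Several CDK inhibitors rose, while D cyclins changed in both directions. Ccnd2 rose (0.40), from a mean of 118.6 CPM in WT to 156.1 CPM in A733T, while Ccnd1 and Ccnd3 (-0.34) fell. Of 10 CDK inhibitors and D cyclins, 6 rose and 2 fell, and 3 rose without WT replicate 3 or A733T replicate 2, while 1 fell without any single library except WT replicate 3. For this and the next lists, the shares of all genes tested were 10.4% higher and 7.33% lower. Cdkn1a, the inhibitor p21 and a p53 target, rose from 61.7, 55.1 and 63.8 CPM to 85.6, 82.9 and 81.8 CPM (0.47, SE 0.07, adjusted p = 2.99e-05), and Ccnd1 fell from 66.6, 65.2 and 71.1 CPM to 50.4, 45.6 and 49.4 CPM (-0.48, SE 0.06, adjusted p = 5.69e-06). Of 23 p53 targets, 9 rose and none fell, among them Perp (0.75, 5.06e-07), Sesn2 (0.56, 8.61e-06) and Btg2 (0.67, 3.71e-05); Sesn2 is also counted in the stress response list. Of 22 proliferation genes, 1 rose and 4 fell, led by Ccne1 (-0.35, 0.000127), and with the GC correction 10 fell. The 1 increase, that of Ccnb2 (0.22, 0.0209), was lost without WT replicate 1, WT replicate 3, A733T replicate 2 or A733T replicate 3. Of 11 interferon response genes measured of 24, 5 rose and 1 fell (none without WT replicate 1, WT replicate 3, A733T replicate 2 or A733T replicate 3), and the 4 with the smallest p belong to antigen presentation: Tap1 (1.10, 6.78e-06), B2m (0.64, 0.000272), H2-D1 (0.70, 0.000529) and H2-K1 (0.61, 0.000664).

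Whether the variant acted differently in differentiated and undifferentiated cells was tested as the effect of A733T in ATRA minus that in mESC. Of 17683 genes tested over both states, 560 differed (3.17%), 311 with a larger value in ATRA (1.76%; 471 genes with the replicate block) and 249 with a smaller one (1.41%). The larger values were the minority without any of mESC WT replicate 1, ATRA WT replicate 1, ATRA WT replicate 3 and mESC A733T replicate 3, with 194 to 206 larger and 220 to 248 smaller values. Neat1, a nuclear long noncoding RNA, was 101.9 CPM in WT and 70.4 in A733T in mESC, and 14.1 and 45.9 CPM after ATRA, a difference in effect of 2.23 (SE 0.27, adjusted p = 9.16e-07). Cdx2 was alike in mESC, at 0.996 CPM in WT and 1.01 in A733T, and 4.25 against 13.5 CPM after ATRA (1.66, adjusted p = 0.000403). Chac1 was higher in A733T in both states, from 18.8 to 31.2 CPM in mESC and from 8.33 to 45.8 CPM after ATRA (1.72, adjusted p = 1.26e-05). Tfap2c (1.18, adjusted p = 1.91e-09), Esrrb (0.74, 5.66e-07) and Klf2 (0.75, 0.000165) also had the larger value in ATRA. Of the stress response list, 2 of 28 members had a larger value in ATRA and none a smaller one; of 14 trophoblast genes, 5 had a larger value and none a smaller one.

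Other genes had an effect that was smaller, absent or opposite in 1 of the 2 states. Jarid2 was higher in A733T in mESC (0.26, adjusted p = 8.09e-05) and lower after ATRA, a difference of -0.54 (3.13e-07). Tdgf1 was at 1136 and 1107 CPM in mESC, where it was not called, and lower after ATRA (-0.60, 1.04e-07). The effect also differed for the endothelial genes Sox18 (-1.96, 0.00162) and Tal1 (-1.74, 0.000548) and the endoderm factor Gata6 (-2.16, 0.0019). All were lower in A733T than in WT after ATRA. In mESC their means were higher in A733T, but on few counts. Sox18 had 9, 5 and 10 in WT against 16, 11 and 25. Tal1 had 23, 9 and 16 against 24, 46 and 29, and Gata6 3, 5 and 3 against 10, 18 and 9. Whether each differed in mESC alone is not reported here. Vim, an intermediate filament of mesenchyme, was at 133 CPM in WT and 49.2 in A733T in mESC and at 204 and 153 CPM after ATRA, so the deficit shrank (1.02, SE 0.09, adjusted p = 2.53e-10). Grb10 was raised more in mESC, from 92.1 to 222 CPM, than after ATRA (-0.42, 0.000313), and so was Cdkn1c, from 2.41 to 9.29 CPM in mESC (-0.97, 0.00555).

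Against the mean of the 4 other variants after ATRA, 8255 of 17030 genes differed (48.5%), 4601 higher in A733T (27%) and 3654 lower (21.5%). The largest increases with the same sign against every variant were Fut1 (4.50), Hoxd9 (3.94), Hoxc9 (3.94), Foxc1 (3.60) and Hoxc8 (3.57). Hoxc9 was at 0.0378 to 0.145 CPM in the mean of each of the 4 lines, against 1.4 ± 0.13 in A733T (SD, n = 3). It passed the filter on low counts only through A733T, so it had to be higher there. The largest decreases were Spink10 (-2.72), Gabrg1 (-2.72), Chl1 (-2.47), Cyp2b23 (-2.47) and Pou4f3 (-2.45, adjusted p = 3.95e-15), a POU factor of sensory cells at 1.98 to 2.86 CPM in A733T. Sall1 was lower by 1.43 on the log2 scale than the mean of the others, which ran from 28.8 ± 1.3 CPM (K634E) to 69.2 ± 2.9 (A677T). This comparison, the one with WT and the one with het share the 3 A733T libraries, and their values are given side by side without a measure of overlap.

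Against het after ATRA, 2664 of 17030 genes differed (15.6%), 1543 higher in A733T (9.06%) and 1121 lower (6.58%). Among genes that averaged at least 1 CPM in A733T or het, whose libraries did not overlap and that were no predicted model, the largest increases were Zscan4b (4.21), Hoxc8 (3.77), Hoxc6 (3.39), Cdx2 (3.24) and Tbx1 (3.2), a T-box factor of the pharyngeal arches that rose from 0.327 CPM in het to 2.91, 3.51 and 2.92 CPM in A733T. Tbx1 was also higher than in WT, by 1.96 (adjusted p = 0.000175). The largest decreases were Fam196b (-2.63), Sall1 (-2.11, 1.15e-17), Notum (-1.65), Bcl11b (-1.60) and Cnih3 (-1.46). Sall1 stood in the order A733T, WT and het, at 13.8 ± 0.22, 32.4 ± 1.7 and 59.4 ± 3.5 CPM (SD, n = 3).

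How the called genes respond to ATRA was read from the parental line, which shares no library with A733T or WT. There 9755 of 17683 genes changed with ATRA (55.2%), 5064 of them upward (28.6%) and 4691 downward (26.5%). Of the 1766 genes higher in A733T, 815 (46.2%) rose with ATRA in parental cells, which is 16.1% of the 5050 genes that rose there and were tested here. Of the 1248 genes lower in A733T, 476 (38.1%) rose with ATRA, or 9.43% of the same 5050. The shares that fell with ATRA in parental cells were 28.7% of the higher genes and 28.7% of the lower genes, against 26.1% of all genes tested. Both sets thus held more genes that rise with ATRA than the 29.7% of all genes tested, and no test was made of this difference, since level and power to call differ between the sets.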

How the data were processed

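RNA was measured by poly(A) sequencing, per the labels. The deposited table holds the authors' raw counts per gene; the submitters' processing notes name the build mm10 and, with no settings, featureCounts 1.6.4, STAR 2.7.3a, DESeq2 1.38.3 and cutadapt 3.2. Columns were matched to samples by name. 6 columns matched no label and were left out, which leaves 48. Symbols and coordinates came from GENCODE M21 (GRCm38), in which 55141 of 55401 gene IDs were found without regard to version.

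Counts were tested with edgeR 4.0.16 (R 4.3.3): filterByExpr, TMM scaling, robust quasi-likelihood fit and Benjamini-Hochberg adjustment over all genes tested, with calls at an adjusted p under 0.05. The comparisons within ATRA used 24 libraries of 8 lines (16 residual degrees of freedom), and those across states 48 libraries (32). The self-test on simulated counts covered 50 genes per fold. A fold change of a gene near 0 counts depends on the prior count and is no bound.

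The genes named were the 15 largest changes in each direction among called genes whose libraries did not overlap, whose mean reached 1 CPM and that were no predicted model, the 4 members of each list with the smallest p, all tested Hox genes, Ezh2, Ezh1, Eed and Suz12, and the 5 largest per direction in the other comparisons; some genes under this rule are not reported here, and genes outside it were named after their values were seen. The members and lists were chosen with earlier results of these data known.

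Same-numbered A733T and WT libraries deviated together (Pearson's r across 10858 genes 0.171, 0.183 and 0.386), although A733T replicate 1 correlated more with WT replicate 2 (0.216). The main fit, which gave the values above unless an alternative is named, did not pair samples by these numbers. The replicate block, an alternative, did so and called 4004 genes between A733T and WT, against 3014 in the main fit. Alternatives were RLE size factors, no filter, DESeq2 1.42.0, the replicate block, a correction for GC content (a loess trend per library, span 0.5), both together, the 6 libraries alone, each library left out and, chosen after seeing the data, replicates 1 and 2 alone.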

Additional observations from a re-analysis of the deposited data

Results flagged for a closer look

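The effect of A733T after ATRA differed from that in mESC for 46 of the genes named, by the test of the difference itself in edgeR's quasi-likelihood fit (adjusted p under 0.05). Values are the log2 effect in ATRA minus that in mESC, and the 3 libraries of each line and state enter them.

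For 22 genes the value was above 0. The largest were Ucma (3.29), Mir363 (2.67), Neat1 (2.23), Tgm3 (2.22), Lrrn2 (1.94), Chac1 (1.72), Cdx2 (1.66) and Sox3 (1.37). Next came Tfap2c (1.18), Ccnd2 (1.12), Sox7 (1.06), Vim (1.02), Cdx1 (0.98), Tubb3 (0.81), Klf2 (0.75) and Esrrb (0.74). The remaining values were Eomes (0.71), Etv1 (0.69), Sesn2 (0.58), Peg3 (0.56), Hes1 (0.48) and Tfcp2l1 (0.39). Ucma and Tgm3 were not called after ATRA, and their values rest on lower levels of A733T than WT in mESC.

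For 24 genes the value was below 0. The lowest were Srarp (-5.18), Pax3 (-4.49), Rasgrp3 (-3.10), Csf1 (-3.08), Igf2os (-3.00), Hoxa3 (-2.94), Gata6 (-2.17) and Sox18 (-1.96). They were followed by Bcl11b (-1.95), Shcbp1l (-1.90), Tal1 (-1.74), Dab2 (-1.70), Mep1b (-1.22), Cdkn1c (-0.97), A2m (-0.95) and Zeb1 (-0.66). The smallest differences were Tdgf1 (-0.60), Jarid2 (-0.54), Insig1 (-0.43), Grb10 (-0.42), Hmgcs1 (-0.37), Tbx3 (-0.36), Sall1 (-0.36) and Mcm4 (-0.24). Pax3 had 0 counts in every mESC WT library and Srarp 0 in every ATRA A733T library, so both fitted values depend on the prior count. Rasgrp3, Csf1, Igf2os and Hoxa3 had at most 2 counts in any mESC WT library, so their values rest on few reads. Hoxa3 was not called after ATRA (0.07). Igf2os lies antisense to Igf2, and without strand in the counting notes their reads cannot be told apart.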

How the results depend on the processing

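The count of genes that differed between A733T and WT was 3014, and 4955 with the GC correction and replicate block together. It was 1534 in replicates 1 and 2 alone, an alternative chosen after seeing the data, which has fewer libraries. The other alternatives gave 4495 (GC correction), 4028 (the 6 libraries alone), 4004 (replicate block), 3064 (RLE), 3014 (DESeq2) and 2715 (no filter), and leaving out 1 library gave 2039 (without WT replicate 3) to 2537. All 3014 calls were kept with the replicate block, which also called Wdr5, Setd2, Uhrf1, Dnmt1, Hoxa6 and Bcl11b and changed no other call among the named genes. The share of calls that were higher was 58.6%, and 50.7% with GC correction and block. The difference between ATRA and mESC covered 560 genes, 879 with the GC correction, 1136 with GC correction and replicate block, 809 with the block (471 with a larger value in ATRA, against 311 without it) and 392 to 543 without 1 library. Against het the count was 2664, 4427 with GC correction and replicate block, 3507 with the block and 1912 to 2059 without 1 library. Against the other variants it was 8255, 9002 with the block and 6833 to 8593 without 1 library. Against het the share of calls that were higher was 57.9%, 49.9% with the GC correction and 48.4% with GC correction and block. For ATRA minus mESC it was 55.5%, and 44.2% to 47.8% without any of mESC WT replicate 1, ATRA WT replicate 1, ATRA WT replicate 3 or mESC A733T replicate 3. No called difference of a named gene from WT changed sign under any of these alternatives. Apart from fewer libraries, the cause of these shifts was not tested. Genes near 1 CPM had few counts, so a gene not called there may not differ or may differ undetected at this depth.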
